A study of Caenorhabditis elegans with 4 samples.

Results

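The sites described are those on chromosome V, the longest C. elegans chromosome, at which the tagged nuclear hormone receptor NHR-237 was called as enriched in L1 larvae. Members are all peaks on V in the deposited lists, 173 of 1119 in the combined list, 3206 of 16621 in the replicate 1 list and 3430 of 18457 in the replicate 2 list. The study made chromatin immunoprecipitation sequencing (ChIP-seq) libraries, 2 from anti-GFP ChIP and 2 from the input chromatin, all from hermaphrodites of strain OP228. These worms are unc119(ed3) mutants, outcrossed 3 times, with the transgene wgIs228, which joins nhr-237 to TY1, EGFP and FLAG and also carries unc119. ChIP and input share this background and this transgene, a recombineered construct brought in by bombardment. The labels give the stage as L1 with a further 26dC, whose meaning they do not explain, and the growth temperature as 20 °C. Worms were fixed in 2% formaldehyde, and the input is 10% of the lysate before ChIP. Peak lists exist for the ChIP libraries only, and the inputs were not analysed here. No untagged strain is among the samples, so enrichment for reasons other than NHR-237 binding was not separated. Separate cultures are not stated for the replicates, so their agreement may reflect technical spread only. The p-values rest on counts of peaks or windows by position, and measure no spread between libraries or cultures.

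Nuclear hormone receptors are transcription factors that bind DNA through a zinc-finger domain, often in response to small lipophilic ligands. The family is greatly enlarged in nematodes, and many of its members have no known ligand. C. elegans autosomes have a gene-rich, rarely recombining centre that holds many conserved genes, and arms that recombine more, hold more repeats and carry fast-evolving gene families. Chromosome V is known for large clusters of chemoreceptor and nuclear receptor genes. In the RefSeq gene table of the WBcel235 assembly, V carries 167 of 269 genes named nhr (62.1%) and 854 of 1269 named chemoreceptor genes (67.3%), and nhr-237 itself (CELE_Y46H3D.6) is on V. The peaks are in another build, WormBase WS220, so which genes lie at them, and whether one lies at nhr-237, was not analysed here.

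V was divided by length into a left arm (the first 25%, up to base 5230550), a centre, and a right arm (the last 25%, from base 15691653). An arm of V spans 5.23 Mb and the centre 10.5 Mb. The combined list held 32 peaks in the left arm, 117 in the centre and 24 in the right arm. Autosomes I to IV, divided in the same way, held 146, 443 and 165 peaks in the same parts.

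Combined peaks were sparse over the whole of V, and most of all in its right arm. V held 8.27 peaks per Mb against 12.2 on I to IV, a ratio of 0.675 (95% interval 0.569 to 0.798, exact binomial p = 1.5e-06). The right arm held 4.59 per Mb against 10.7 in the right arms of I to IV, a ratio of 0.428 (interval 0.267 to 0.660, adjusted p = 7.5e-05, exact binomial). The left arm held 6.12 per Mb against 9.48, a ratio of 0.645 (interval 0.426 to 0.951, adjusted p = 0.025, exact binomial). The centre held 11.2 per Mb against 14.4, a ratio of 0.778 (interval 0.629 to 0.955, adjusted p = 0.023, exact binomial). These p-values are two-sided, adjusted by Benjamini-Hochberg over the 3 parts, and treat peaks as independent, which neighbouring peaks are not. With peaks within 2 kb merged, the left arm and the centre no longer passed (ratios 0.681 and 0.815, adjusted p = 0.060 for each, exact binomial), while the right arm did (0.423, adjusted p = 0.00012). The left arm also missed the threshold when chromosome I or IV was left out of the comparison (ratios 0.672 and 0.703, adjusted p = 0.053 and 0.089), and the centre when I was (0.796, adjusted p = 0.053), by the same exact test.

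With whole chromosomes as the unit, a permutation over 5 autosomes cannot give a p below 0.2, so the order of the chromosomes is a description. The right arm of V was the sparsest of the 5 right arms, below IV at 7.55 per Mb, I at 9.30, II at 12.6 and III at 14.2. Set against each right arm in turn, V was lower than I (ratio 0.493, adjusted p = 0.024, exact binomial over 12 pairs), II (0.365, adjusted p = 0.00022) and III (0.323, adjusted p = 4e-05). Its difference from IV did not pass the same exact test (ratio 0.608, interval 0.344 to 1.06, adjusted p = 0.076). The centre of V was also the sparsest of the 5 centres, next to IV at 12.5 per Mb. Its pairs with I and III passed the exact test (adjusted p = 0.033 and 0.028), and those with IV (ratio 0.897, interval 0.685 to 1.18) and II (0.776, interval 0.593 to 1.02, adjusted p = 0.076) did not. The left arm of V was denser than that of II, at 5.24 per Mb, and sparser than those of I, III and IV, at 10.6, 10.4 and 11.4 per Mb. Of its 4 pairs, those with I and IV passed the exact test (adjusted p = 0.039 and 0.022), that with III did not (0.051), and that with II did not (ratio 1.17, adjusted p = 0.67).

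**Figure D1:**
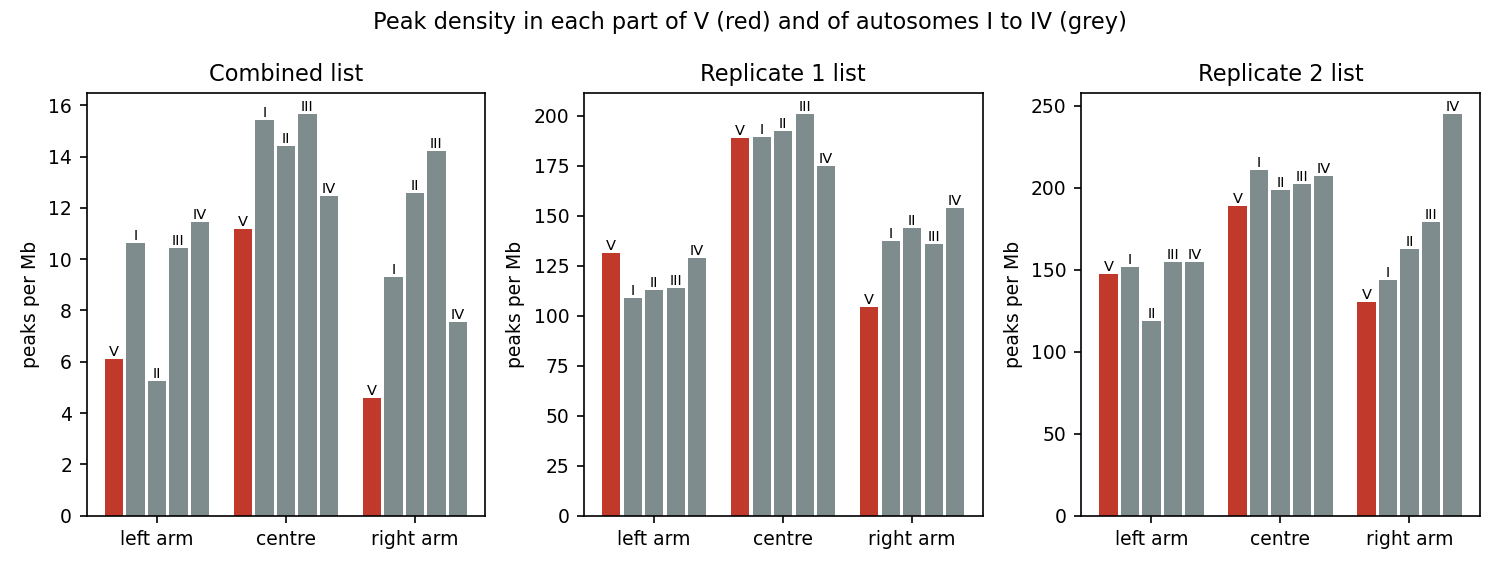
Peaks per Mb (vertical axis, from 0) in the left arm, centre and right arm of V (red) and of autosomes I to IV (grey, named above each bar), in the combined list and in each replicate list. The right arm of V is the lowest bar of its group in all 3 lists, at 4.59, 104 and 130 per Mb, whereas its left arm is the highest of its group in replicate 1, at 131 per Mb.

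Along V the combined peaks were spread unevenly, with a dense stretch at the left border of the centre and a sparse one in the right arm. In bins of 5% of the length, V lay below the mean of I to IV in 19 of 20 bins and below all 4 of them in 11. The exception was the bin from 5230551 to 6276660, where V held 22 peaks, 21.0 per Mb against 7.86 to 14.5 on the other autosomes. That bin carried 18.8% of the central peaks of V, and without it the rest of the centre held 10.1 per Mb. Its peaks were of middling rank, with a median number of 553.5 in the combined list, and its best was peak 69. Here and below low-numbered peaks are called strong, since over the whole list low numbers go with high deposited scores. Over the 1119 combined peaks Spearman's rho of number and score was -0.94, and it was closer to -1 in either replicate list. The V combined peaks up to number 514 all share the highest score, so the score does not order them. From peak 527 (score 2.55) to peak 716 (2.68) on V the score rose with the number. No source states what the number means. The densest 100 kb window of V, from 6200001 to 6300000, lay partly in this bin and held 7 peaks. The next 3 bins to the right, from 30% to 45% of the length, held 6 peaks each, or 5.74 per Mb, against means of 16.8, 14.8 and 12.2 per Mb on I to IV. In the right arm, the bin from 80% to 85% of the length held 1 peak, 0.956 per Mb against 5.80 to 9.30 on I to IV. These bins were picked out after their values were seen. In the full replicate 1 list the dense bin held 185 per Mb on V, against 135 to 170 on I to IV. In replicate 2 V was the lowest there, at 172 against 177 to 199. The bin from 80% to 85% was lowest on V in both, at 87.0 against 126 to 177 and 83.2 against 110 to 290. From 30% to 45%, V lay within the range of I to IV in replicate 1. In replicate 2 it lay below all 4 from 30% to 40% and within their range from 40% to 45%.

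**Figure D2:**
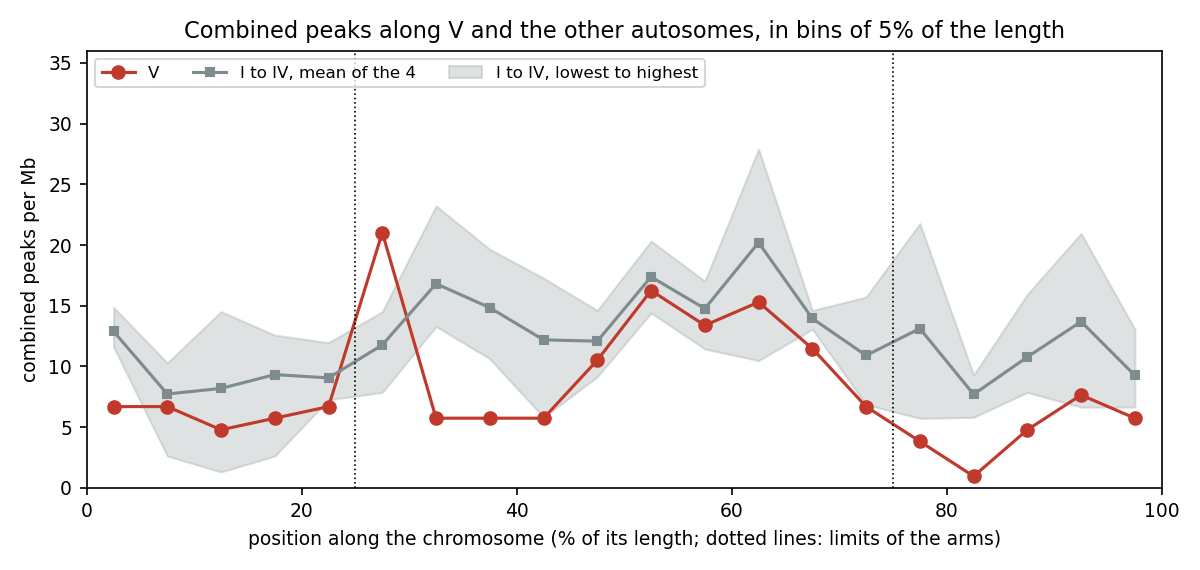
Combined peaks per Mb (vertical axis) in 20 bins of 5% of chromosome length (horizontal axis), for V (red circles) and for I to IV (grey squares, their mean; grey band, lowest to highest of the 4). V rises above the band in 1 bin, at 25% to 30%, and drops to 0.956 per Mb at 80% to 85%.

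By full 1 Mb windows the densest part of each arm and of the centre was as follows. The left arm was densest from 1 to 2 Mb, with 8 combined peaks, 2 of them among the 279 lowest-numbered. The centre was densest from 13 to 14 Mb, with 17 peaks, none of them among those 279. The right arm was densest from 19 to 20 Mb, with 6 peaks, and the shorter stretch from 20 Mb to the end also held 6. The 20 full windows of V held a median of 7 peaks (range 3 to 17), against 11.5 (range 2 to 26) in 60 windows of I to IV.

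The full replicate lists reach far weaker sites than the combined list. In them the right arm of V was sparse as well, whereas the left arm was not. The left arm of V was denser than other left arms in replicate 1, with 131 peaks per Mb against 117 (ratio 1.12, interval 1.03 to 1.23, adjusted p = 0.014, exact binomial). In replicate 2 it held 148 against 145 per Mb (ratio 1.02, interval 0.937 to 1.11, adjusted p = 0.67, exact binomial). The centre held 189 against 189 per Mb in replicate 1 (interval of the ratio 0.950 to 1.05) and 189 against 205 in replicate 2 (ratio 0.922, adjusted p = 0.0025, exact binomial). The right arm was sparse in both, at 104 against 143 per Mb in replicate 1 (ratio 0.727, adjusted p = 2.3e-11) and 130 against 185 in replicate 2 (ratio 0.703, adjusted p = 4.5e-17), by the same exact test.

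Split by peak number, the right arm lay below the other right arms in all 12 classes, 6 in each replicate, and every interval ended below 1. Among peaks 1 to 500 its ratio was 0.465 in replicate 1 and 0.421 in replicate 2, and among peaks 1001 to 2000 it was 0.304 and 0.412. Among peaks from 8001 on it was 0.840 (interval 0.741 to 0.951) and 0.767 (interval 0.688 to 0.853). The left arm had ratios of 0.544 and 0.659 among peaks 1 to 500 and of 0.589 and 0.565 among peaks 501 to 1000, with intervals that reach past 1. Among its peaks 1001 to 2000 the ratios were 1.17 and 1.20, and from there on it stood at or above 1, between 1.01 and 1.26. In the centre the ratios were 0.647 and 0.586 among peaks 1 to 500, and 1.06 and 0.964 from peak 8001 on. Differences between the classes were not tested.

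**Figure D3:**
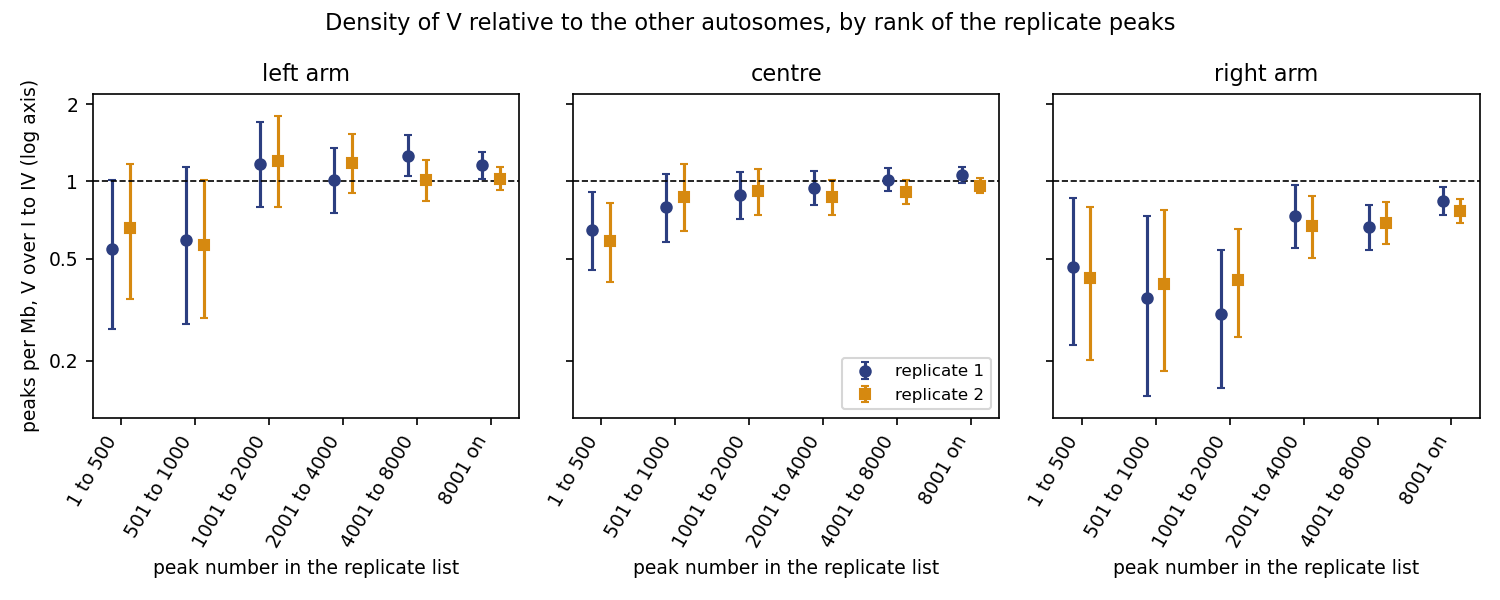
Peaks per Mb on V divided by peaks per Mb on I to IV (vertical log axis, 1 marked by the dashed line) for 6 classes of peak number, strongest first, in replicate 1 (blue circles) and replicate 2 (orange squares), with exact 95% intervals that cover the counting of peaks. Right arm points all lie below 1, between 0.304 and 0.840, while left arm points go from 0.544 and 0.659 in the first class to 1.16 and 1.03 in the last.

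When each replicate list was shortened to its own 1119 lowest-numbered peaks, the number in the combined list, the picture was that of the combined list. The right arm then held 22 and 24 peaks in replicates 1 and 2 (ratios 0.415 and 0.416), the left arm 27 and 34 (0.602 and 0.672) and the centre 114 and 115 (0.746 and 0.775). Of all V peaks in the replicate lists, 6.02% in replicate 1 (95% Wilson interval 5.25 to 6.90) and 5.83% in replicate 2 (5.10 to 6.67) overlapped a combined peak, against 8.48% (7.94 to 9.04) and 7.67% (7.20 to 8.17) on I to IV. The combined list was made from these libraries, so the agreement is no independent check.

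The strongest V sites were in the centre, but V had few sites at the very top. Its best was combined peak 26, a 450 bp interval at V 10466551 to 10467000, which was number 21 in replicate 1 and number 28 in replicate 2. Peak 27, at 9546907 to 9547040, was one of only 2 V peaks narrower than the common 450 bp, and was peak 26 and peak 33 of the replicates. Peak 40 at 14685574 to 14686023 was peak 34 and peak 51, and its closest neighbour lay 316 kb away. Peak 45, at 9344060 to 9344509, was peak 37 and peak 95. All 4 were among the first 100 peaks of both libraries. Peak 50 at 10897123 to 10897572 was peak 73 and peak 53, with a neighbour 2.59 kb away. Peak 64 at 14199966 to 14200415 was peak 42 and peak 105. Peak 69 at 6224414 to 6224863, the best of the dense stretch, was peak 54 and peak 97. Both of these ranked higher in replicate 1. Peak 83 at 10965430 to 10965879 was peak 123 and peak 75. These 8 are the lowest-numbered combined peaks of the centre, and 3 of them lie in the window from 10 to 11 Mb.

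The left arm had 1 site of similar rank. Combined peak 47 at V 1151283 to 1151732 was number 44 in replicate 1 and number 72 in replicate 2. Peak 189, at 773367 to 773504, was the other narrow V peak, 138 bp wide, and was peak 167 and peak 269. Peak 209 at 1871773 to 1872222 was peak 315 and peak 152. The left arm thus had 3 sites among the 279 lowest-numbered combined peaks, all within its first 2 Mb. The next 5 in rank were peak 294 (619022 to 619471), peak 366 (2600508 to 2600957), peak 374 (4844588 to 4845037), peak 387 (1285664 to 1286113) and peak 402 (3390956 to 3391405). These 5 had numbers between 276 and 489 in replicate 1 and between 293 and 742 in replicate 2. In replicate 1, peaks 294 and 387 (numbers 276 and 292) stood above peak 209, and in replicate 2 all 5 stood below the first 3.

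The right arm, although sparse, held 8 well-ranked sites, spread from its inner border at 75.9% of the length to the chromosome end. Combined peak 94 at V 20778188 to 20778637 was number 82 in replicate 1 and number 142 in replicate 2. Peak 195, at 20776719 to 20777168, lay 1.47 kb from it and was peak 346 and peak 170. Both sit at 99.3% of the length. Peak 115 at 17951192 to 17951641 was peak 72 in replicate 1 and peak 291 in replicate 2. Peak 128 at 19529137 to 19529586 was peak 108 and peak 235. Both ranked higher in replicate 1 than in replicate 2. Peak 159, at 16965600 to 16966049, was peak 185 and peak 159, and its closest neighbour lay 609.8 kb away. Peak 165 at 18967608 to 18968057 was peak 177 and peak 145. Peak 196 at 15880615 to 15881064 was peak 235 and peak 186, and peak 277 at 17857821 to 17858270 was peak 252 and peak 260. These 8 are all the right arm sites among the 279 lowest-numbered combined peaks, against 43 in the right arms of I to IV together. Among combined peaks up to number 559 the right arm density ratio was 0.331 (interval 0.153 to 0.637, adjusted p = 0.00058, exact binomial). Strong sites were thus sparse there too.

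Of those 279 peaks V held 29 (10.4%), against 15.5% of all 1119 combined peaks. Of the 29, 3 lay in the left arm, 18 in the centre and 8 in the right arm. Its share of the next 280 was 19.3%, and of numbers 560 to 839 and 840 to 1119 it was 14.6% and 17.5%. In the left arm 9.38% of peaks were among the 279 (interval 3.24 to 24.2), against 26.0% (19.6 to 33.7) in other left arms. In the centre the share was 15.4% (interval 9.96 to 23.0) against 24.4% (20.6 to 28.6), and in the right arm 33.3% (18.0 to 53.3) against 26.1% (20.0 to 33.2). None of these differences passed Fisher's exact test after adjustment over the 3 parts (adjusted p = 0.092, 0.092 and 0.47). The first 25% of a full replicate list takes in far more peaks than 279, so the depths differ. At that depth the share was lower on V in the right arm, unlike in the combined list, where the difference did not pass. It was 18.5% against 24.8% in replicate 1 and 18.8% against 24.3% in replicate 2 (Fisher's exact adjusted p = 0.0057 and 0.0062), and the centre passed in replicate 1 only (24.1% against 27.4%, adjusted p = 0.0063). Median numbers were 548 against 562.5 in the left arm, 590 against 582 in the centre and 697.5 against 513 in the right arm. The right arm of V was thus split, with 8 peaks up to number 277, 2 from 280 to 559 and 14 beyond. Of the V peaks 72 shared the highest deposited score of 3.02, 13 of them in the left arm, 49 in the centre and 10 in the right arm. These were 40.6%, 41.9% and 41.7% of the V peaks of those parts, against 46.6%, 44.5% and 50.9% on I to IV. No test was made of these shares.

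Stretches with no site were long on V, above all in the right arm. Shares of empty windows follow in part from density, so they are not a result separate from it. Of 52 windows of 100 kb in the right arm, 34 (65.4%, interval 51.8 to 76.8) held no combined peak, against 54 of 151 (35.8%, 28.6 to 43.7) in other right arms (Fisher's exact adjusted p = 0.00093). In the left arm 29 of 52 (55.8%) were empty against 62 of 154 (40.3%), and in the centre 39 of 105 (37.1%) against 86 of 308 (27.9%). Neither passed the exact test after adjustment over the 3 parts (adjusted p = 0.082 and 0.085). Among the other arms, the left arm of II had a like share of empty windows, 65.8%, and the right arm of IV came next with 48.8%.

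The longest empty stretch of V ran for 892 kb in the right arm, from 16966050 to 17857820. It was not empty in the replicates, which listed 69 and 63 peaks there, or 77.4 and 70.6 per Mb. The whole right arm of V held 104 and 130 per Mb in those lists. The best replicate peaks of the stretch were only peak 2923 of replicate 1 and peak 1109 of replicate 2. The stretch began at peak 159 and ended at peak 277, both among the 279 lowest-numbered. The next stretch of the right arm, 663 kb from 17951642 to 18614469, began at peak 115. The left arm's longest, 683 kb from 4143510 to 4826969, held no replicate peak better than number 954 of replicate 1 and 651 of replicate 2. The centre's longest, 612 kb from 6267802 to 6879403, follows the dense stretch directly. It held 126 replicate 1 peaks and 116 replicate 2 peaks, or 206 and 189.7 per Mb, against 189 per Mb in the whole centre of V in each list. Among the autosomes only the left arm of II had a longer distance between consecutive combined peaks than the right arm of V, with 1069 kb between centres against 892 kb.

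Distances between neighbours were correspondingly long on V. From each peak to its closest neighbour the median was 82.5 kb in the right arm against 23.5 kb in other right arms, 62.2 against 30.5 kb in the left arm and 22.1 against 16.8 kb in the centre. Between consecutive peaks the medians were 119.8 against 70.9 kb, 131 against 72.1 kb and 58.8 against 43.6 kb in the same order. Distances follow from density in part, and no test was made of them. V had 6 distances over 500 kb, 3 of them in the right arm, against 4 on I to IV together.

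**Figure D4:**
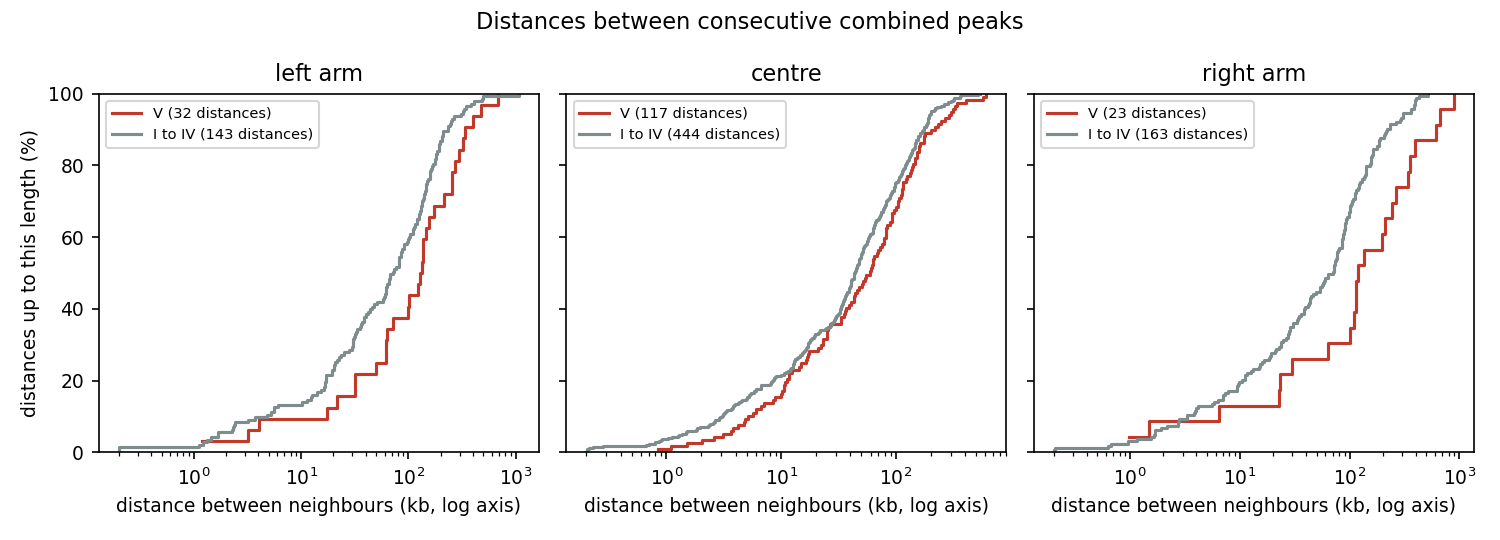
Cumulative share of distances between consecutive combined peaks (vertical axis, percent) up to a given length in kb (horizontal log axis), for V (red) and I to IV (grey) in each part. The V curve lies to the right of the grey one over most of its course in both arms, with medians of 131 and 119.8 kb against 72.1 and 70.9 kb, and close to it in the centre.

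Another combined peak with its centre within 2 kb was found for 12 of 173 V peaks (6.94%), against 12.5% on I to IV. By part the shares were 6.25% against 9.59% in the left arm, 5.13% against 13.3% in the centre and 16.7% (4 of 24) against 12.7% in the right arm, and no test was made of them. After merging peaks whose edges lay within 2 kb, which takes in 1 more pair, V had 166 regions. Of these 7 held 2 peaks and 0 held 3 or more, against 8 of 695 regions with 3 or more on I to IV. Regions of 2 or more peaks made up 4.22% on V and 7.19% on I to IV, which was not tested. The strongest pair was the one at 20776719 to 20778637 near the right end. Others with a peak of number below 300 were at 10535292 to 10537238 (best peak 236) and 8934988 to 8936523 (best peak 238). The remaining 4 pairs were at 5016644 to 5018280, 6227503 to 6229998, 12869888 to 12871173 and 19521692 to 19523105.

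Agreement between the replicates was next set against that of the other autosomes. Over the whole list, 38.8% of replicate 1 peaks overlapped a replicate 2 peak by at least 1 bp, and 36.2% in the other direction. In the right arm of V these shares were 33.2% (181 of 545) and 27.6% (188 of 681), against 39.9% and 32.7% in other right arms (Fisher's exact adjusted p = 0.026 and 0.031, adjusted over 6 tests). Fewer bases were covered there by the other list, 5.76% and 4.30% on V against 8.05% and 5.88%, and its part in the difference was not tested. Among the first 5000 peaks of each replicate the right arm differed for replicate 1 (28.6% against 39.9%, Fisher's exact adjusted p = 0.042) but not for replicate 2 (27.5% against 34.7%, adjusted p = 0.12). In the centre the shares were 38.6% against 41.5% for replicate 1 (Fisher's exact adjusted p = 0.045) and 38.9% against 39.8% for replicate 2 (adjusted p = 0.61). The call for replicate 1 was lost at 50% reciprocal overlap (Fisher's exact adjusted p = 0.061) and for centres within 200 bp (0.073). Among the first 5000 peaks the centre differed in both, with 33.6% against 42.2% (Fisher's exact adjusted p = 0.0016) and 35.3% against 42.7% (0.0068). In the left arm they were 34.2% against 35.9% and 31.2% against 30.5%, which did not pass (Fisher's exact adjusted p = 0.61 and 0.72).

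Nearly all of the strongest V sites were found in both libraries. Among peaks 1 to 500, 64 of 66 V peaks of replicate 1 (97.0%, interval 89.6 to 99.2) and 65 of 66 of replicate 2 (98.5%, interval 91.9 to 99.7) were found in the other library, against 98.2% and 98.8% on I to IV. All 12 right arm peaks of this class in replicate 1 and all 11 in replicate 2 were found, and so were all 12 and 15 of the left arm. Over 12 classes of number, the intervals of V and of I to IV overlapped in 11. The other was peaks 2001 to 4000 of replicate 1, with 42.1% on V (interval 37.2 to 47.3) against 51.6% (48.7 to 54.4). In replicate 2 the same class gave 44.6% against 47.2%.

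Among combined V peaks, 172 of 173 (99.4%) overlapped a peak of both replicates, against 99% of the whole combined list. The exception was peak 870 at V 10042282 to 10042731, which was peak 421 of replicate 1 and overlapped no replicate 2 peak. The ranks of the matched peaks were loosely related on V, with a Spearman's rho across peaks of 0.28 over 172 peaks, against 0.49 over 746 on I to IV. By part, rho was 0.51 in the right arm (24 peaks), 0.26 in the centre (116) and 0.18 in the left arm (32), against 0.54, 0.48 and 0.47 on I to IV. These are descriptions across peaks of the same libraries. Of V peaks, 49.7% were among the 1119 lowest-numbered peaks of both replicates, against 59.8% on I to IV. Median distances between centres were 16 bp (replicate 1) and 7 bp (replicate 2) from those of the matched peaks, against 13 and 11 bp on I to IV. The combined list was made from both libraries, and a match requires overlap. The closeness of centres and the 99.4% found in both were thus largely set in advance.

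**Figure D5:**
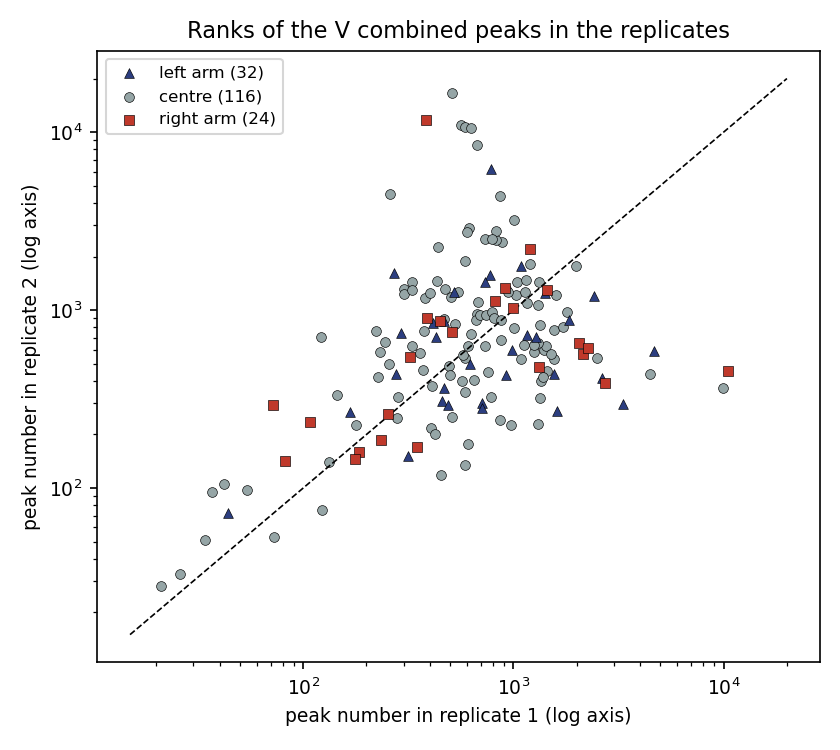
Peak number in replicate 1 (horizontal log axis) and replicate 2 (vertical log axis) of each combined V peak found in both, by part (blue triangles, left arm; grey circles, centre; red squares, right arm); the dashed line marks equal numbers. The numbers of a site differ by a median of 2.01-fold and by up to 32.6-fold.

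V also held the fewest combined peaks for its genes of the 6 chromosomes. It has 4995 protein-coding genes in the RefSeq table (WBcel235), which gives 34.6 combined peaks per 1000 genes, against 61.6 on I to IV and 51.7 to 73.1 on each of them. Genes named for chemoreceptor families make up 17.1% of these genes on V and 3.12% on I to IV, and nhr genes 3.34% and 0.645%. These counts use chromosome names only. Whether peaks avoid or favour such genes was not tested.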

How the data were processed

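The deposited files are 3 peak lists, 1 for each ChIP library and 1 combined list. Per the file headers the build is WormBase WS220. The lists give spp_via_IDR as their source, which names the SPP caller and the irreproducible discovery rate. No aligner, filter, threshold or use of input is stated in the sources used here. The deposited score per peak is the authors' own, with no stated meaning, and was used only to describe peaks. Other deposited values are peak start and end, counted from 1, and a peak number of unstated meaning, used as rank with number 1 taken as the strongest. Read depth is unknown, so intervals cover the counting of peaks only.

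Chromosome lengths were the largest peak end in any list. A peak belonged to the part that held its centre. Densities were compared by two-sided exact conditional binomial tests with Clopper-Pearson intervals, and shares by two-sided Fisher's exact tests with 95% Wilson intervals, adjusted by Benjamini-Hochberg at a threshold of 0.05. The density test was tried on simulated independent counts, and the overlap count on a simulated list. Fisher's tests were not tried in this way, and the simulation does not cover the dependence of neighbouring peaks. Spacing was described without a test. Named sites are the 8 lowest-numbered combined peaks of each part, V peaks missing from a replicate, the longest gaps, merged regions, and the densest 1 Mb windows. All merged regions of 2 are listed, since none held 3. The single bins and pairs of chromosomes were added after the values were seen. Members and lists were chosen with earlier results of these data known. Sequences and genes at peaks were not analysed here, for want of a WS220 genome. Tools were pandas 2.3.3, SciPy 1.17.1 and NumPy 2.4.6 under Python 3.11.15.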

Additional observations from a re-analysis of the deposited data

How the results depend on the processing

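For 17 results 83 alternatives were tried, and 54 of them left sign and call as they were. The right arm density ratio of 0.428 and the right arm share of empty windows passed under every alternative tried for them. The share of empty windows follows in part from the density. The ratio of the whole of V was 0.886 to 0.962 with a replicate left out, passing in the full replicate 2 list and not in that of replicate 1 (0.962, exact p = 0.054), and 0.650 to 0.674 for lists limited to 1119 peaks. It was 0.563 per protein-coding gene, an alternative added after the data were seen.

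The left arm and centre calls were less stable. In the full replicate lists the left arm ratio was 1.02 to 1.12, so its direction reversed, and the centre ratio 0.922 to 1.0. For lists limited to 1119 peaks they were 0.602 to 0.672 and 0.746 to 0.775, and passed. The cause of the reversal in the full replicate lists was not tested. The left arm missed the threshold in the upper part of the combined list (0.686), with merged peaks (0.681), with wider arms (0.746), and compared without chromosome I (0.672) or IV (0.703). The centre missed it in the upper part of the list (0.781), with merged peaks (0.815) and without chromosome I (0.796). The left to right arm ratio of V, 1.33 (exact p = 0.35), was 1.13 to 1.26 in the full replicate lists, which hold far more peaks, and passed there. For lists limited to 1119 peaks it was 1.23 in replicate 1 and 1.42 in replicate 2. Neither passed (exact p = 0.57 and 0.24).

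The differences in the share of top-ranked peaks, in percentage points, turned over at the first 50% of the list (3.13 in the left arm, 0.233 in the centre, -12.3 in the right arm). With a replicate left out they ran from -3.52 to -0.675 in the left arm, -3.30 to -2.09 in the centre and -6.25 to -5.55 in the right arm, where the combined list gave 7.27. The right arm passed in both replicate lists and the centre in replicate 1. For 50 kb windows the centre's excess of empty windows passed (8.73 points). For replicate 1 peaks of the centre found in replicate 2, the difference missed the threshold at 50% reciprocal overlap (-2.67 points) and for centres within 200 bp (-2.57). For the first 5000 peaks it was larger and passed (-8.53, against -2.95 for all peaks), as did the right arm (-11.3, against -6.66). For replicate 2 peaks found in replicate 1, the left arm difference turned to -1.24, -1.31 and -7.19 points under those 2 settings and the first 5000 peaks, and the centre gave 0.150 within 200 bp and -7.34 for the first 5000 peaks, which passed. The right arm missed it for the first 5000 peaks (-7.17). No paired analysis was possible because the inputs, which share the replicate numbers, were not analysed here. With read depth unknown, absence from a list does not show that a site is unbound.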

Other observations

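Some V sites of the combined list ranked very differently in the libraries. They were picked for this difference, so the values are a description. Peak 978 at V 5504993 to 5505442 was number 512 in replicate 1 and number 16683 in replicate 2. Peak 723 at 19642923 to 19643372, in the right arm, was peak 384 and peak 11692. The reverse held for peak 905 at 13892578 to 13893027, number 9887 in replicate 1 and number 363 in replicate 2, and for peak 1103 at 20580475 to 20580924, peak 10542 and peak 456. Numbers more than 4-fold apart were found for 31 of 172 V peaks (18.0%), against 19.7% on I to IV.

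Some strong V peaks of a single library lacked a combined peak. The best in replicate 1 was peak 423 at V 11823956 to 11824375, and the best in replicate 2 was peak 411 at 11933228 to 11933683. Neither overlapped a peak of the other library. Of the 1119 lowest-numbered peaks of each replicate, V had 35 without a combined peak in replicate 1 and 51 in replicate 2. The shares with one were 78.5% and 70.5% on V, against 82.0% and 76.3% on I to IV.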
